A study of Homo sapiens with 12 samples.

Results

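Integrins, intercellular adhesion molecules (ICAMs) and selectin ligands are the surface proteins by which a lymphocyte slows, sticks and crosses a vessel wall. The 9 genes described here are ITGA4, ITGB1, ITGB7, ITGAL, ITGB2, ICAM1, ICAM2, ICAM3 and SELPLG. They were taken by gene symbol from a table of 20318 entries, and each symbol occurred once among them. The cells were Z138, an established line from a human mantle cell lymphoma, labelled as lymphoblast and wild type, and their RNA was sequenced. The groups were AU-15330 (0.5 µM) for 8 h, the vehicle DMSO for 8 h, AU-15330 (0.5 µM) for 24 h and, last, DMSO for 24 h. AU-15330, a PROTAC degrader, removes SMARCA2, SMARCA4 and PBRM1, which are subunits of the SWI/SNF chromatin remodelling complexes. DMSO at 8 h had 2 libraries with a column of their own and the other groups had 3 each, 11 in all. Nothing in the labels ties replicates to separate cultures, so p-values here cover the spread between libraries, which may be technical. All values come from 1 cell line, and the labels name no vessel wall or stromal cells in the cultures.

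An integrin is a pair of 1 alpha and 1 beta chain. The alpha 4 chain, encoded by ITGA4, pairs with the ITGB1 product to form VLA-4, a receptor for VCAM-1 and fibronectin, or with the ITGB7 product to form the gut-homing receptor for MAdCAM-1. The ITGAL and ITGB2 products form LFA-1, the lymphocyte receptor for ICAM-1, ICAM-2 and ICAM-3. SELPLG encodes PSGL-1, a mucin that binds P-selectin when it carries the right sugars. In mantle cell lymphoma, VLA-4 is known for adhesion of the tumour cells to stroma.

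Estimated total counts were 50763540 to 67573110 per library. Expression is given as the normalised count, obtained by undoing the deposited transform, and a value of 59.4 corresponded to 1 CPM, the count scaled to library depth. A log2 fold is AU-15330 over DMSO on log2(normalised count + 60) with its standard error (SE), a scale that understates the change of low genes. Adjusted p-values come from a separate limma fit to the deposited log2 values, so they need not match a fold divided by its SE. They were adjusted by Benjamini-Hochberg over all 12721 tested entries, with 0.05 as the threshold. The marker lists bear on what the cells were. CCND1 and SOX11, markers of mantle cell lymphoma, summed to 152879 to 161609 normalised counts in AU-15330 against 159106 to 162498 in DMSO at 8 h, and to 173590 to 180760 in AU-15330 against 169687 to 172801 in DMSO at 24 h. CCND1 carries most of that sum and passed at neither time (0.11 at 24 h after quantile normalisation, limma adjusted p = 0.00227). SOX11 averaged 6191 in AU-15330 and 5439 in DMSO at 8 h and did not pass there, except with a replicate block or without DMSO replicate 2 (limma adjusted p = 0.0322 and 0.00823). At 24 h it rose, to 11310 in AU-15330 against 5057 in DMSO (log2 fold 1.15, limma adjusted p = 2.1e-07). Of 5 B cell markers (CD79A, CD79B, MS4A1, PAX5, CD22), 4 fell at 8 h and 5 at 24 h under AU-15330, where 21.4% and 26.2% of all tested entries fell. CD22 reached 1 CPM in DMSO libraries alone, so it entered the test through the group where it is high. The 5 markers summed to 29579 to 32499 in AU-15330 against 53128 to 55600 in DMSO at 8 h, and 23510 to 25373 in AU-15330 against 72852 to 73342 in DMSO at 24 h. In bulk RNA fewer cells of a type and less RNA per cell cannot be told apart. The T cell list (4 genes, of which CD3G alone was tested and fell) summed to 251 to 338 in AU-15330 against 784 to 800 in DMSO at 8 h, and 98.7 to 124 in AU-15330 against 796 to 846 in DMSO at 24 h. The fibroblast list (3 genes, of which COL1A1 alone was tested and fell) summed to 174 to 324 in AU-15330 against 649 to 989 in DMSO at 8 h, and 76.2 to 233 in AU-15330 against 1196 to 1278 in DMSO at 24 h. The myeloid list (3 genes, of which CD68 alone was tested, and rose at 24 h) summed to 128 to 153 in AU-15330 against 111 to 121 in DMSO at 8 h, and 199 to 260 in AU-15330 against 84.6 to 98.3 in DMSO at 24 h. Erythroid and megakaryocyte genes summed to at most 35.8. No listed marker with an entry was at 0 in all 11 libraries, and the part of these markers in the results was not tested. The RNA of the degraded targets changed by -0.16 at 8 h and -0.28 at 24 h for SMARCA4, by -0.48 and -0.87 for SMARCA2, and by 0.00 and -0.16 for PBRM1, on the log2 scale, and all but the PBRM1 value at 8 h passed the threshold.

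Short stretches of promoter are shown first because 4 of the genes hold, in the 250 bases before their RefSeq start site, letters that are known as a core of ETS factor sites or as an NF-kappaB site. RefSeq promoters (GRCh38.p14) were matched for 5 of the 9 genes, ITGA4, ITGB1, ITGB7, ICAM1 and ICAM3, and the window nearest the gene's start was searched on both strands. For ITGB1 the start site of that window lies 47562 bases from the gene's start in GENCODE 29. For ITGA4, ITGB7, ICAM1 and ICAM3 the distance is 56 to 285 bases. ITGAL, ITGB2, ICAM2 and SELPLG had no entry. The ETS core was searched as AGGAAG, and the kappaB-like site, which shares 4 letters in a row with it, as GGAANTTCC. The GC box was searched as GGGCGG. The TATA box was searched as TATAAA. The sequences below read 5′ to 3′ along the gene's own strand, with the match in capitals. In ITGB7 and ITGB1 the match lies on the opposite strand and is printed as its complement.
ICAM1 (chr19:10270923-10270952, plus strand): tgctttagcttGGAAATTCCggagctgaag
ICAM3 (chr19:10339625-10339654, minus strand): gcccttcgggcacctcAGGAAGgcaccttc
ITGB7 (chr12:53207262-53207291, minus strand): ggggagtgtcaCTTCCTcctctgccgtctc
ITGB1 (chr10:32958451-32958480, minus strand): cccggtcgcaCTTCCTgccccatcctccgc

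The kappaB-like match in ICAM1 began at base -186 from the start site, and the ETS core began at -14 in ICAM3, -29 in ITGB7 and -240 in ITGB1. ICAM1 also held a TATA box at -30 and 2 GC boxes, ITGB1 held 3 GC boxes, and the ITGA4 window held none of the 4 motifs. Of 35116 RefSeq promoter windows of the same length, 28.7% held the ETS core, 0.826% the kappaB-like letters, 42.6% a GC box and 10.7% a TATA box. A match describes letters only, and the part of these letters in the values given below was not tested.

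**Figure D1:**
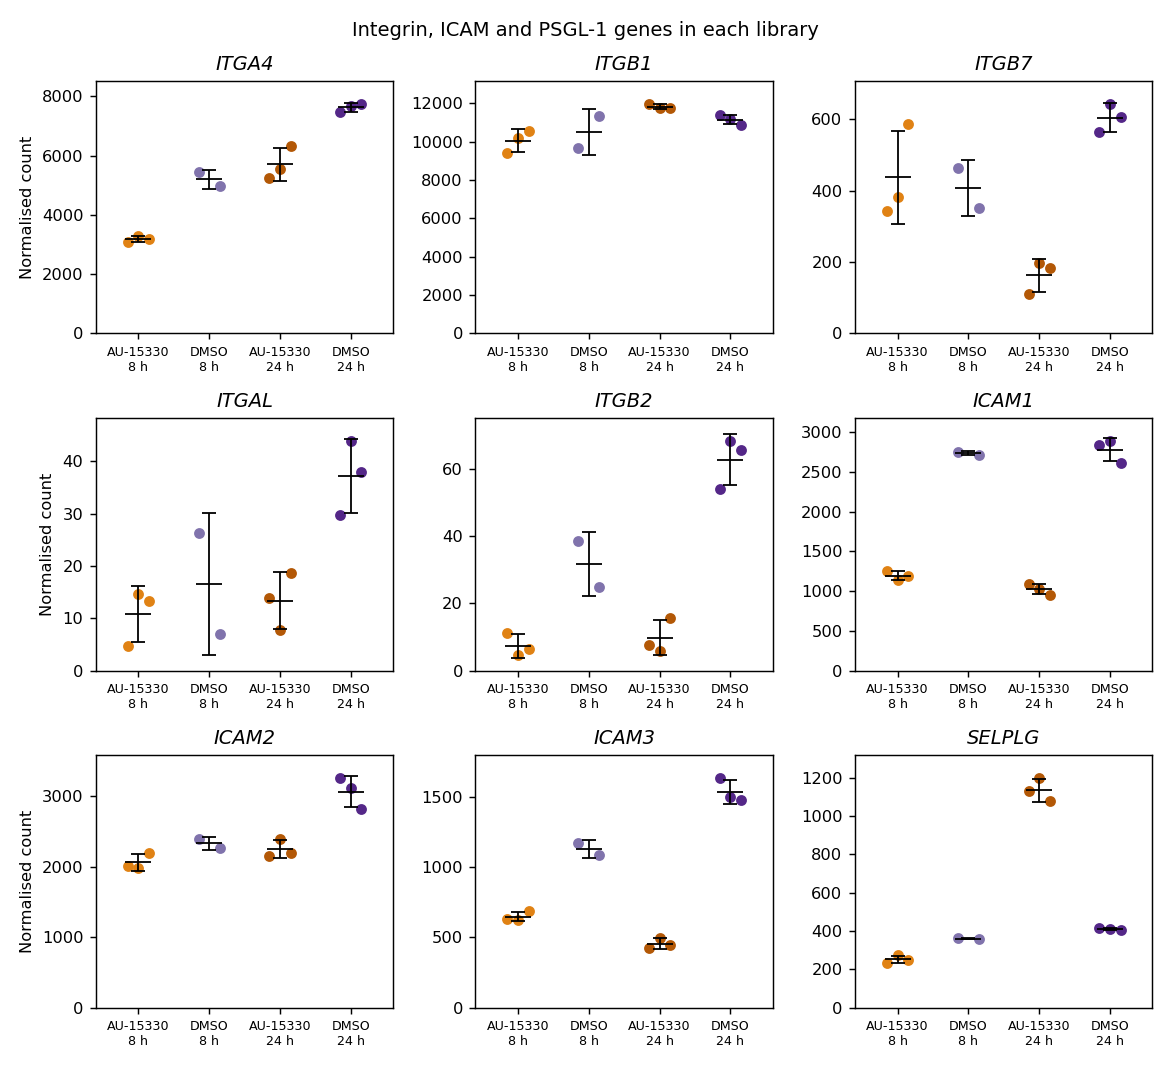
Normalised count of each gene (vertical axis, from 0, scaled per gene) in every library of AU-15330 and DMSO at 8 h and 24 h. Points are libraries, and the long tick and bars are the mean and SD. SELPLG is the gene whose AU-15330 libraries lie below DMSO at 8 h and above it at 24 h, and ITGB1 stays between 9417 and 11959 in every library.

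The chains of VLA-4 moved unequally. ITGA4 (chr2:181457202-181536187, plus strand, GRCh38 with GENCODE 29 annotation) fell at both times, while ITGB1 did not pass the threshold at either. ITGA4 had normalised counts of 3103, 3291 and 3200 in AU-15330 at 8 h, against 5436 and 4985 in DMSO at 8 h. At 24 h ITGA4 had 5254, 5561 and 6323 in AU-15330, against 7466, 7679 and 7746 in DMSO. All AU-15330 libraries lay below all DMSO libraries of their time, yet the AU-15330 libraries of 24 h overlapped DMSO of 8 h. The log2 fold was -0.69 ± 0.0697 (SE) at 8 h (limma adjusted p = 2.4e-05), and -0.42 ± 0.0623 at 24 h (limma adjusted p = 0.000141). The change between the times, 0.28 ± 0.0935, did not pass the threshold (limma adjusted p = 0.147).

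ITGB1 (chr10:32900319-33005792, minus strand) encodes the common beta 1 chain. The normalised counts were 9417, 10207 and 10542 in AU-15330 at 8 h, against 9648 and 11333 in DMSO at 8 h, and those ranges overlapped. At 24 h they were 11959, 11756 and 11731 in AU-15330, against 11368, 11184 and 10879 in DMSO. The AU-15330 libraries of 24 h lay just above the DMSO ones, by 6.03% of the mean. The log2 fold was -0.06 ± 0.0638 at 8 h and 0.08 ± 0.0571 at 24 h (limma adjusted p = 0.494 and 0.239). Without DMSO replicate 1 at 8 h the 8 h value was -0.17 and passed (limma adjusted p = 0.0459), and after quantile normalisation the 24 h value was 0.16 and passed (limma adjusted p = 0.0432).

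ITGB7 (chr12:53191318-53207307, minus strand) encodes the other partner of alpha 4 and fell at 24 h. At 8 h it had 343.5, 380.9 and 586 normalised counts in AU-15330, against 463.3 and 351.7 in DMSO, and the groups overlapped. At 24 h ITGB7 had 109.2, 196 and 182 in AU-15330, against 563.6, 642.4 and 606.9 in DMSO. Every AU-15330 library of 24 h lay below every other library of the study. The log2 fold was 0.07 ± 0.216 at 8 h (limma adjusted p = 0.793) and -1.60 ± 0.193 at 24 h (limma adjusted p = 4.09e-05), and the difference between the times, -1.67 ± 0.29, passed (limma adjusted p = 0.00305). ITGB7 overlaps ZNF740, a gene of the opposite strand with a mean of 5510 normalised counts, and no source used here says whether counting used strand, so reads of the pair may not be separated. With 300 in place of 60 added before the log, the 24 h fold was -0.97.

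The LFA-1 genes were barely detected. ITGAL (chr16:30472658-30523185, plus strand) reached 1 CPM in 0 libraries and ITGB2 (chr21:44885953-44931989, minus strand) in 2, so neither passed the filter of 1 CPM in 3 libraries. ITGB2 had 11.17, 4.494 and 6.329 normalised counts in AU-15330 at 8 h, against 38.39 and 24.9 in DMSO at 8 h. The 24 h values were 7.639, 5.961 and 15.62 in AU-15330, against 53.94, 68.14 and 65.64 in DMSO. ITGB2 was thus lower in every AU-15330 library than in every DMSO library. In a fit with no filter its log2 fold was -0.44 ± 0.0871 at 8 h and -0.81 ± 0.0779 at 24 h (limma adjusted p = 0.00514 and 4.68e-05). ITGAL had 4.612, 14.57 and 13.29 in AU-15330 at 8 h, against 26.23 and 6.997 in DMSO at 8 h, which overlap. The 24 h values were 13.87, 7.768 and 18.58 in AU-15330, against 29.8, 43.89 and 37.89 in DMSO. ITGAL at 24 h did not overlap between the groups, and its unfiltered log2 fold was -0.10 ± 0.112 at 8 h and -0.41 ± 0.0999 at 24 h (limma adjusted p = 0.614 and 0.0208).

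Of the LFA-1 ligands, ICAM1 and ICAM3 fell at both times and ICAM2 fell at 24 h. ICAM1 (chr19:10270835-10286615, plus strand) encodes a cytokine-inducible member of the family and is the gene with the kappaB-like letters shown above. It had 1257, 1135 and 1192 normalised counts in AU-15330 at 8 h, against 2749 and 2714 in DMSO at 8 h. At 24 h ICAM1 had 1086, 1029 and 956.4 in AU-15330, against 2839, 2885 and 2610 in DMSO. The highest AU-15330 library, at 1257, lay well below the lowest DMSO library, at 2610. The log2 fold was -1.16 ± 0.0709 at 8 h and -1.39 ± 0.0634 at 24 h (limma adjusted p = 2.08e-07 and 1.06e-08), and the difference between the times, -0.23 ± 0.0952, did not pass (limma adjusted p = 0.146).

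ICAM3 (chr19:10333776-10339823, minus strand) encodes the member that resting leukocytes carry, and it fell further at 24 h than at 8 h. Its normalised counts were 633, 624.8 and 685.5 in AU-15330 at 8 h, against 1170 and 1082 in DMSO at 8 h. In the 24 h libraries they were 427.1, 497.9 and 442.3 in AU-15330, against 1630, 1495 and 1472 in DMSO. The log2 fold was -0.74 ± 0.0848 at 8 h and -1.63 ± 0.0758 at 24 h (limma adjusted p = 2.9e-05 and 1.26e-08). The difference of -0.88 ± 0.114 passed (limma adjusted p = 0.00046). AU-15330 libraries were lower at 24 h than at 8 h, and DMSO libraries were higher at 24 h than at 8 h.

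ICAM2 (chr17:64002594-64020634, minus strand) encodes a member that leukocytes and endothelium carry without induction, and its log2 folds were the smallest of the 3. It had 2015, 1980 and 2197 normalised counts in AU-15330 at 8 h, against 2396 and 2269 in DMSO at 8 h. At 24 h ICAM2 had 2155, 2399 and 2202 in AU-15330, against 3258, 3114 and 2826 in DMSO. The groups did not overlap at either time, but the log2 fold of -0.17 ± 0.074 at 8 h did not pass the threshold (limma adjusted p = 0.0915), and that of -0.43 ± 0.0661 at 24 h did (limma adjusted p = 0.000193). The difference, -0.26 ± 0.0992, did not pass (limma adjusted p = 0.0771), except without DMSO replicate 3 at 24 h (-0.32, limma adjusted p = 0.0376). PRR29, which overlaps ICAM2 on the opposite strand, had a mean of 332.

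SELPLG (chr12:108622277-108633959, minus strand) changed in opposite directions at the 2 times. At 8 h it had 235, 274.7 and 247.2 normalised counts in AU-15330, against 362.6 and 360 in DMSO. In the 24 h libraries SELPLG had 1130, 1198 and 1079 in AU-15330, against 416.4, 411.8 and 403.4 in DMSO. The AU-15330 libraries of 24 h were the highest of the study for this gene and those of 8 h the lowest. The log2 fold was -0.43 ± 0.0839 at 8 h (limma adjusted p = 0.00414) and 1.34 ± 0.0751 at 24 h (limma adjusted p = 2.56e-08), where the ratio of the means was 2.77. The difference of 1.78 ± 0.113 passed (limma adjusted p = 4.81e-06).

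**Figure D2:**
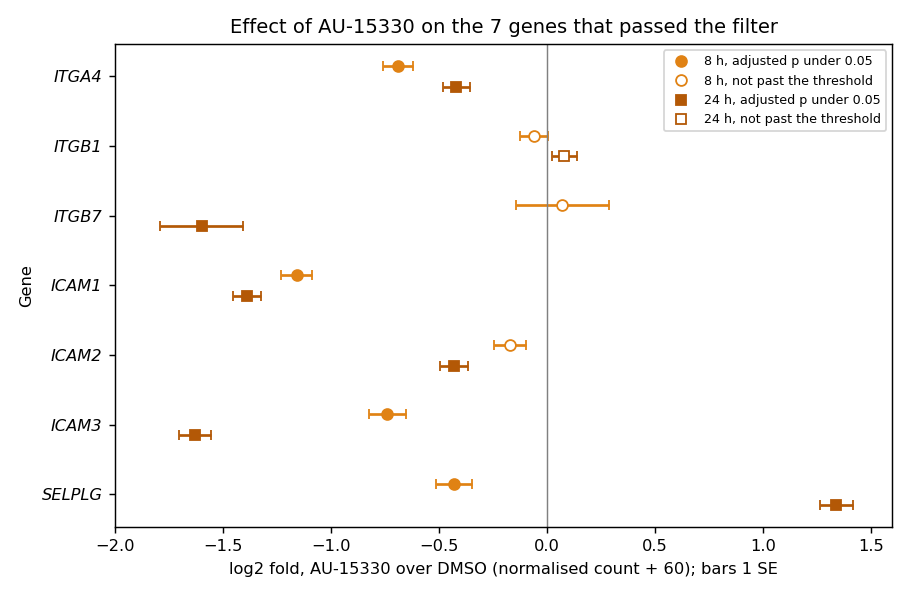
Log2 fold of AU-15330 over DMSO (horizontal axis, normalised count + 60) for the 7 genes that passed the filter, at 8 h (circles) and 24 h (squares), with bars of 1 SE. Filled symbols had a limma adjusted p under 0.05. SELPLG is at -0.43 at 8 h and 1.34 at 24 h, and ITGB7 is at 0.07 and -1.60.

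Each of the 7 genes was at 1 CPM or more in all 11 libraries, so none passed the filter through 1 group alone. At 8 h 4 of the 7 fell and 0 rose, where 21.4% of all tested entries fell and 22.9% rose, 44.2% in all. At 24 h 5 fell and 1 rose, where 26.2% of tested entries fell and 24.7% rose, 50.9% in all. The libraries of AU-15330 and DMSO did not overlap for 5 of the 7 at 8 h and 7 of the 7 at 24 h, where 62.5% and 59% of tested entries did not, so these counts are near the background at 8 h. The median log2 fold of the 7 was -0.43 at 8 h and -0.43 at 24 h, against 0.02 and 0.01 over all tested entries. The effect differed between the times for 3 of the 7, ITGB7 and ICAM3 downward and SELPLG upward, where 18.5% of tested entries did, 11% downward and 7.54% upward. Of all entries called for that difference 59.3% were downward, and 48.4% were after quantile normalisation.

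The time course within each treatment cannot be told apart from batch, since the labels give each time its own batch. In AU-15330, 24 h against 8 h, ITGA4 rose by 0.82 ± 0.0623, ITGB1 by 0.23 ± 0.0571 and SELPLG by 1.94 ± 0.0751 on the log2 scale (limma adjusted p = 5.26e-06, 0.00728 and 3.08e-08). ITGB7 fell by 1.15, ICAM3 by 0.46 and ICAM1 by 0.21 (limma adjusted p = 0.00117, 0.00174 and 0.0366), and ICAM2, at 0.12, did not pass. So 3 of 7 rose and 3 fell, where 18.3% of tested entries rose and 21.1% fell, 39.4% in all. The ICAM1 call was lost in 7 alternatives, with adjusted p from 0.0502 to 0.121. In DMSO, 24 h against 8 h, ITGA4, ICAM3 and ICAM2 rose by 0.55, 0.43 and 0.38 (limma adjusted p = 0.000659, 0.00358 and 0.00711), and the other 4 did not pass, where 6.56% of tested entries rose and 10.1% passed in either direction. ICAM2 did not pass without DMSO replicate 2 at 8 h (limma adjusted p = 0.0643). Of all calls over time in DMSO 35.2% were downward, and 47.4% were after quantile normalisation.

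Levels of different genes were compared per kilobase (kb) of merged exon. ITGB1 was the highest of the 9 genes in every group, at 1673 normalised counts per kb in AU-15330 and 1745 in DMSO at 8 h, and 1966 in AU-15330 and 1854 in DMSO at 24 h. In AU-15330 at 8 h the order below ITGB1 was ICAM2 (636), ITGA4 (405), ICAM1 (322), ICAM3 (220), SELPLG (101) and ITGB7 (97.5), and the last pair overlapped. In DMSO at 8 h it was ICAM1 (737), ICAM2 (719), ITGA4 (660), ICAM3 (382), SELPLG (145) and ITGB7 (90.9), and the first pair overlapped. The places depend on the gene length used. Per kb of median protein-coding transcript ICAM1 (922) lay below ICAM3 (984) in AU-15330 at 8 h, with overlap, ICAM1 (2108) lay below ITGA4 (2517) and ICAM2 (2153) in DMSO at 8 h, and ITGB7 lay above SELPLG in both groups.

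In AU-15330 at 24 h the order below ITGB1 was ITGA4 (723), ICAM2 (694), SELPLG (455), ICAM1 (276), ICAM3 (154) and ITGB7 (36.2 per kb), with ITGA4 and ICAM2 overlapping. In DMSO at 24 h it was ITGA4 (966), ICAM2 (945), ICAM1 (750), ICAM3 (520), SELPLG (165) and ITGB7 (135 per kb), and the first pair again overlapped. By merged exon length SELPLG lay above both ICAM1 and ICAM3 in AU-15330 at 24 h and below both in the other groups. By median transcript length SELPLG (666 per kb) lay below ICAM1 (790) and ICAM3 (693) in AU-15330 at 24 h as well and overlapped ICAM3, and ITGB7 (829) lay above SELPLG (241) in DMSO at 24 h. ITGAL and ITGB2 were last in every group, between 1.08 and 9.21 per kb of merged exon, where they overlapped each other in all groups but DMSO at 24 h. With either length ITGB1 was first and both LFA-1 chains were below each of the 3 ICAM genes in every group.

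**Figure D3:**
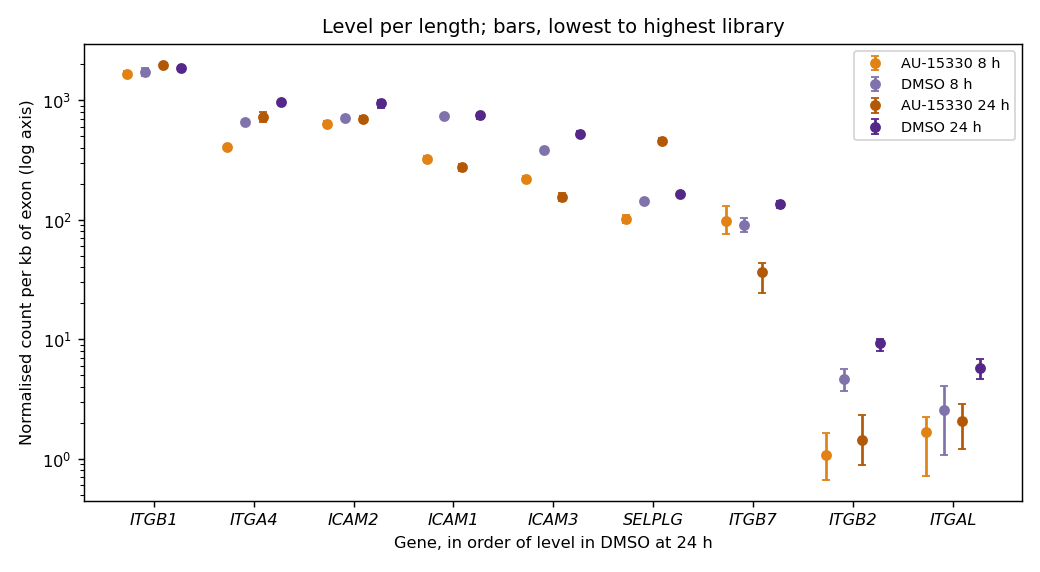
Normalised count per kb of merged exon (log axis) for the 9 genes, ordered by level in DMSO at 24 h. Points are group means and bars run from the lowest to the highest library. ITGB1 is highest in all groups, and ITGAL and ITGB2 lie below 10 per kb.

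Ratios of partner genes within a library do not depend on the scaling between libraries. The log2 ratio of ITGA4 to ITGB1 per kb was -2.04 ± 0.061 in AU-15330 at 8 h (SD, n = 3) and -1.40 ± 0.25 in DMSO at 8 h (SD, n = 2). At 24 h it was -1.45 ± 0.15 in AU-15330 and -0.94 ± 0.058 in DMSO (SD, n = 3 each), so ITGA4 was the scarcer chain throughout and more so under AU-15330. The ratio of ITGB7 to ITGB1, the beta chains that share alpha 4, was -4.12 ± 0.34 in AU-15330 at 8 h and -4.26 ± 0.44 in DMSO at 8 h, and at 24 h -5.77 ± 0.46 in AU-15330 and -3.77 ± 0.11 in DMSO. The ratio of ICAM2 to ICAM3 was 1.53 ± 0.0083 in AU-15330 at 8 h and 0.91 ± 0.024 in DMSO at 8 h, and at 24 h 2.16 ± 0.034 in AU-15330 and 0.86 ± 0.059 in DMSO. ICAM1 to ICAM3 was 0.55 ± 0.097 in AU-15330 at 8 h and 0.95 ± 0.067 in DMSO at 8 h, and at 24 h 0.84 ± 0.16 in AU-15330 and 0.53 ± 0.079 in DMSO, so its shift was downward at 8 h and upward at 24 h. Over 12 two-sided exact permutation tests the smallest p was 0.1 at 24 h and 0.2 at 8 h, with an adjusted p of 0.2 or more. At 24 h 0.1 is also the smallest p that 3 against 3 allows, so no ratio could pass.

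**Figure D4:**
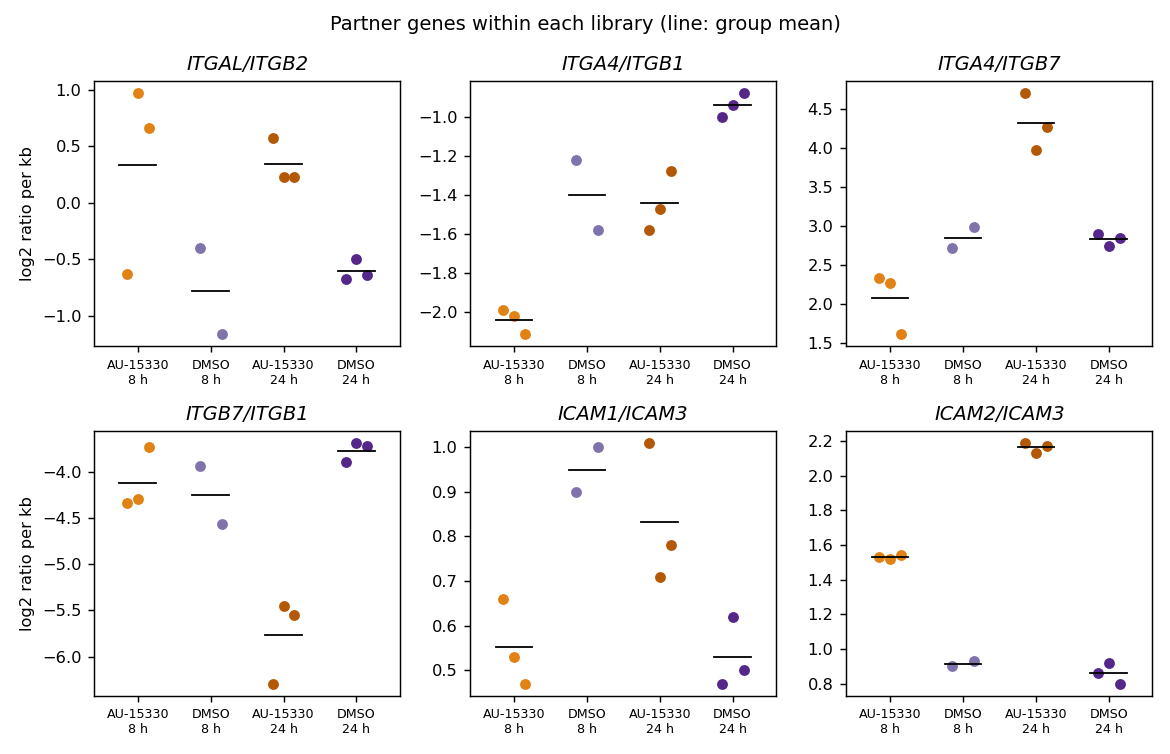
Log2 ratio of normalised counts per kb between partner genes (vertical axis, scaled per pair) in every library of AU-15330 and DMSO at 8 h and 24 h, with lines at group means. The ratio of ICAM2 to ICAM3 is 1.53 and 2.16 in AU-15330 and 0.91 and 0.86 in DMSO.

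ICAM1 and ICAM3 lie in the ICAM cluster of chromosome 19, in an interval of 69 kb with 47.2 kb between them. The interval held 9 entries, of which 6 were tested. ICAM1 and ICAM3 set the ends of the interval, so a count that includes them is no test of the region. At 8 h 4 of the 6 fell, where 21.4% of all tested entries did. These were ICAM1, ICAM3, ICAM5 (the neuronal member, -0.93 ± 0.139, limma adjusted p = 0.000236) and FDX2 (a mitochondrial ferredoxin, -0.24 ± 0.0828, limma adjusted p = 0.0326), and the FDX2 call was lost in 8 alternatives. At 24 h ICAM1 and ICAM3 fell, while ICAM5 was at 0.02 and did not pass. The unnamed entry ENSG00000267303.1 rose by 1.52 ± 0.451 at 24 h (limma adjusted p = 0.0183), a call lost without DMSO replicate 2 or 3 at 24 h. It reached 1 CPM in all 6 AU-15330 libraries and in 2 DMSO libraries, so it met the filter through the group where it is high. The p-value of this entry therefore lends its rise no support. RAVER1, an RNA-binding protein gene next to ICAM3, was at -0.08 ± 0.0458 and -0.09 ± 0.041 and passed at neither time (limma adjusted p = 0.208 and 0.0822), though it did in 3 alternatives. ICAM4, the red cell member, was not tested, at a mean of 7.96 normalised counts. The entries other than ICAM1, ICAM3 and ICAM5 were named after their values were seen.

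Other integrin chains were mostly below the filter. Of 16 other alpha chains 3 were tested. ITGA3, the alpha chain of a laminin receptor, averaged 291.5 ± 98.9 normalised counts in AU-15330 and 956.1 ± 59.5 in DMSO at 8 h, and 275.7 ± 68.5 in AU-15330 and 1664 ± 136 in DMSO at 24 h (SD). Its log2 fold was -1.57 ± 0.209 and -2.38 ± 0.187 (limma adjusted p = 4.79e-05 and 1.78e-07). ITGAE, the alpha E chain that pairs with beta 7, was at -0.04 ± 0.0688 at 8 h and had -0.21 ± 0.0615 at 24 h (limma adjusted p = 0.618 and 0.0164), a call lost without DMSO replicate 3 or AU-15330 replicate 2 at 24 h. Of 5 other beta chains 2 were tested. ITGB3 rose by 0.91 ± 0.126 and 0.41 ± 0.112 (limma adjusted p = 0.000153 and 0.0111) and ITGB4 by 0.46 ± 0.154 at 24 h (limma adjusted p = 0.026), both at means of at most 108.9 normalised counts, and the ITGB4 call was lost in 5 alternatives. ITGB3 reached 1 CPM in all 6 AU-15330 libraries and in 0 DMSO libraries, so it entered the test through the group where it is high. ITGB4 reached 1 CPM in the 3 AU-15330 libraries of 24 h and in 1 DMSO library of 24 h. It too met the filter of 3 libraries only through the group where it is high. The p-values of ITGB3 and ITGB4 therefore lend their rises no support.

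Among 19 other ligands and adhesion receptors 7 were tested, and 3 fell at each time with 0 rising, where 21.4% of all tested entries fell at 8 h and 26.2% at 24 h. PODXL, a sialomucin related to CD34, fell by 1.27 and 0.95 (limma adjusted p = 3.06e-07 and 7.41e-07). CD47, which associates with integrins, fell by 0.21 at 8 h and 0.56 at 24 h (limma adjusted p = 0.0379 and 3.32e-05), the 8 h call being lost in 7 alternatives. PECAM1, also a marker on the endothelial list, was at -0.65 ± 0.318 at 8 h and -1.74 ± 0.284 at 24 h (limma adjusted p = 0.131 and 0.000575), and its 8 h value passed in a fit of the 8 h libraries alone (limma adjusted p = 0.0245). The list's other endothelial markers, VWF, CDH5 and KDR, were not analysed here, nor were VCAM1, SELE and SELP.

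Genes that control integrin activation were lower more often than higher at 24 h. The list holds activators and also genes that restrain Rap1 or integrins, such as SIPA1, which was among those that fell at 24 h (-0.82). Of 30 genes 25 were tested, with 5 higher and 9 lower at 8 h and 0 higher and 16 lower at 24 h, where 22.9% and 24.7% of all tested entries rose and 21.4% and 26.2% fell. CORO1A, an actin regulator of leukocytes, had a log2 fold of -1.30 ± 0.045 at 8 h and -2.08 ± 0.0403 at 24 h (limma adjusted p = 4.78e-09 and 5.43e-11). RASGRP3, an activator of Ras and Rap1, was at -1.56 ± 0.108 and -1.86 ± 0.0966, and CYTIP, a partner of cytohesin-1, at -1.32 ± 0.0933 and -1.76 ± 0.0834 (limma adjusted p at most 1.03e-06). Of genes closer to the receptor, named after their values were seen, RASSF5, the Rap1 effector known as RAPL, fell by 0.90 and 0.99, whereas TLN1, the talin that binds integrin tails, was at -0.10 ± 0.0696 and -0.14 ± 0.0623 and did not pass (limma adjusted p = 0.282 and 0.0844), though its 24 h value did in 2 alternatives.

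Of 27 adaptors and kinases downstream of integrins 22 were tested, with 1 higher and 10 lower at 8 h, and 4 higher and 11 lower at 24 h, where 22.9% and 24.7% of all tested entries rose and 21.4% and 26.2% fell. The related focal adhesion kinases PTK2 and PTK2B had folds of opposite sign, though PTK2 entered the test through AU-15330 libraries alone. PTK2 (FAK) averaged 107 ± 24.7 normalised counts in AU-15330 and 32 ± 13.5 in DMSO at 8 h, and 213.3 ± 22.9 in AU-15330 and 26.23 ± 8.46 in DMSO at 24 h (SD). PTK2B (PYK2) averaged 429.7 ± 40.6 in AU-15330 and 1139 ± 168 in DMSO at 8 h, and 293.6 ± 58.1 in AU-15330 and 1943 ± 191 in DMSO at 24 h (SD). Their log2 folds were 0.86 ± 0.154 and 1.67 ± 0.138 for PTK2, and -1.29 ± 0.147 and -2.51 ± 0.132 for PTK2B (limma adjusted p at most 0.00122). PTK2 reached 1 CPM in all 6 AU-15330 libraries and in 0 DMSO libraries, so it was tested only because it is high in AU-15330. Its p-values therefore lend its rise no support, and it is the 1 gene counted as higher at 8 h. LPXN (leupaxin), a leukocyte adaptor that binds PYK2, was at -1.35 ± 0.0724 and -2.22 ± 0.0647 (limma adjusted p = 5.85e-08 and 3.68e-10).

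ICAMs and PSGL-1 are anchored to actin by ezrin, radixin and moesin and shed by ADAM proteases. All 11 genes of that list were tested, with 1 higher and 6 lower at 8 h, and 1 higher and 5 lower at 24 h, 6 of 11 where 50.9% of all tested entries passed at 24 h and 44.2% at 8 h. SPN (CD43), a sialomucin of leukocytes, averaged 730.4 ± 71.9 normalised counts in AU-15330 and 3147 ± 74 in DMSO at 8 h, and 1145 ± 61.6 in AU-15330 and 3237 ± 155 in DMSO at 24 h (SD). Its log2 fold was -2.02 ± 0.0814 and -1.45 ± 0.0728 (limma adjusted p = 8.85e-09 and 8.87e-09), so the 2 leukocyte mucins SPN and SELPLG had opposite signs at 24 h. ARHGEF2, an activator of RhoA, fell by 0.50 and 0.90 (limma adjusted p = 5.48e-05 and 1.25e-07). The sheddase gene ADAM10 fell by 0.40 at 8 h, and RHOH, a haematopoietic GTPase, fell by 0.90 at 24 h (limma adjusted p = 0.000764 and 2.42e-07). ADAM10 also fell at 24 h, with -0.67 to -0.57 over the alternatives (limma adjusted p at most 8.21e-05). RHOH also fell at 8 h, with -0.36 to -0.29 over the alternatives (limma adjusted p at most 0.0177).

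The enzymes that build selectin-binding sugars moved both ways. Of 22 genes 18 were tested, with 7 higher and 8 lower at 8 h, and 5 higher and 8 lower at 24 h, against 22.9% higher and 21.4% lower of all tested entries at 8 h and 24.7% and 26.2% at 24 h. C1GALT1, which makes the core 1 O-glycan, had a log2 fold of 0.89 ± 0.0424 at 8 h and 1.16 ± 0.038 at 24 h (limma adjusted p = 6.02e-08 and 1.1e-09). GCNT1, which branches core 1 to core 2, fell by 1.63 and 1.68, and ST3GAL1, which caps core 1 with sialic acid, by 1.30 and 1.71 (limma adjusted p at most 1.25e-05). CHST2, a sulfotransferase for selectin ligands, fell by 1.07 at 8 h and 0.82 at 24 h (limma adjusted p = 1.35e-06 and 5.35e-06). FUT7, the fucosyltransferase for sialyl Lewis x and named after its values were seen, averaged 94.05 ± 7.07 in AU-15330 and 15.06 ± 6.16 in DMSO at 8 h, and 38.07 ± 9.65 in AU-15330 and 6.363 ± 3.13 in DMSO at 24 h, with log2 folds of 1.04 ± 0.123 and 0.56 ± 0.11 (limma adjusted p = 4.34e-05 and 0.00043). It reached 1 CPM in the 3 AU-15330 libraries of 8 h and in 0 others, so the group where it is high brought it into the test. FUT7's p-values therefore lend its rise no support, though it is counted among the higher genes at both times. At 24 h SELPLG and C1GALT1 were higher and GCNT1 and ST3GAL1 lower in AU-15330 than in DMSO.

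**Figure D5:**
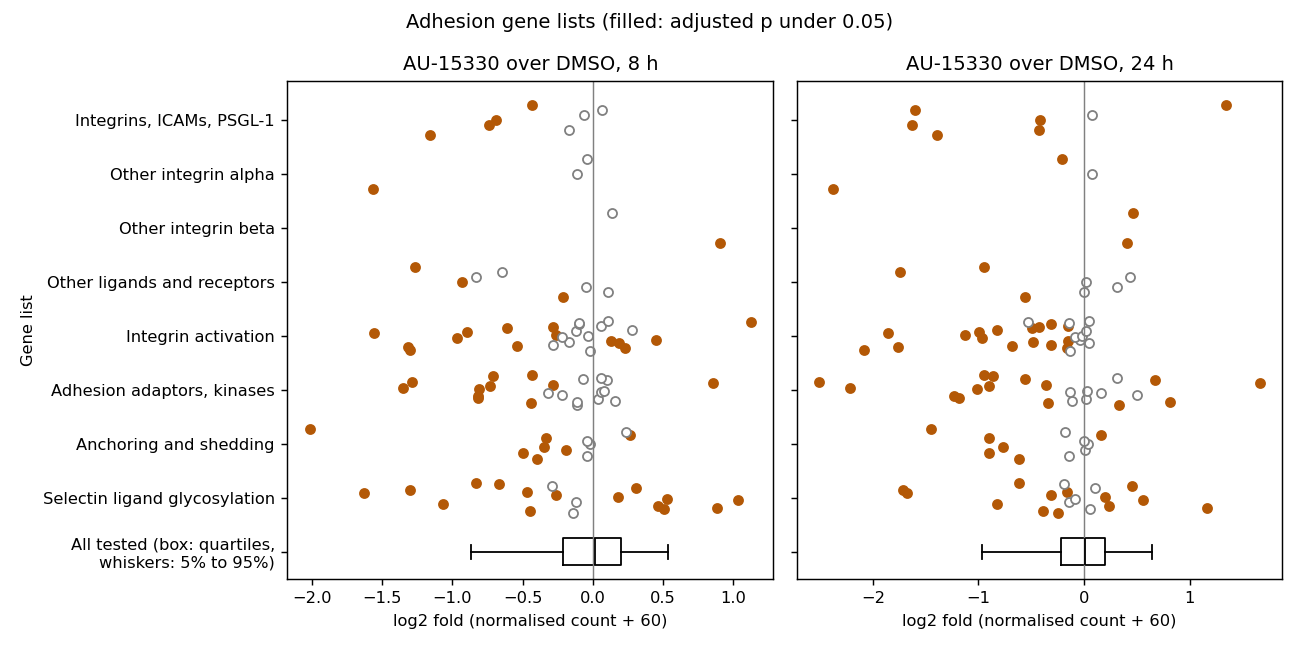
Log2 fold of AU-15330 over DMSO (horizontal axes, normalised count + 60) at 8 h (left) and 24 h (right) for the tested genes of each adhesion list, with filled points for a limma adjusted p under 0.05. The box shows the quartiles of all tested entries, -0.21 and 0.20 at 8 h and -0.22 and 0.20 at 24 h, with whiskers at 5% and 95%. In the integrin activation list all 16 filled points at 24 h lie below 0.

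The genes whose deposited values ran most like each of the 9 were found by Pearson's r over the 11 libraries. These libraries fall into 4 groups, so r mostly reflects group means and has no p here. ICAM1 was most like IFIH1 (r = 0.997), an RNA sensor, then FCRLA (0.996), a B cell protein related to Fc receptors. ICAM3 was most like MS4A1 (0.996), which encodes the B cell antigen CD20, then TCEA2 and ADA (0.993 each). SELPLG was most like TMEM54 (0.988), then QPRT and SH2D3C (0.980 each). ITGB7 was most like HLA-DQB1 (0.965), an MHC class II gene, with IQSEC1 (0.950) and SND1 (0.947) next. HLA-DQB1, chosen here for that likeness, had log2 folds of -0.06 at 8 h and -0.86 at 24 h, given as a description. ITGA4 was most like IKZF2 (0.992), TOP2B (0.991) and CHML (0.989), and ITGB1 had no gene above KHDRBS1 (0.935). ICAM2 was most like NFKBIE, NCF1C and SCPEP1 (0.959 each), and NCF1C shares reads with near-identical copies. The low genes ITGB2 and ITGAL were most like CREB3L2 (0.983) and CSK (0.930).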

How the data were processed

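RNA of 12 samples in 4 groups was sequenced, and groups were taken from sample titles. Per the submitters' processing notes, the tools were kallisto 0.46.1 and DESeq2 1.24.0 under R 4.3.2, after FastQC 0.11.9 and Trimmomatic 0.40, with build GRCh38.p13 and no stated parameters. The labels name a poly(A) and a ribosomal depletion kit without saying which sample had which. The authors' deposited table holds log2 values whose lowest value, 10.36, is the same in every library, as a variance-stabilising transform gives and log CPM does not. A doubling is 0.163 on that scale at 100 normalised counts and 0.852 at 10000, so the transform was inverted for levels and folds. Of values up to 20 counts, 54.1% to 56.2% were whole within 0.02, so no count model was used. Of 12 value columns 1 was not used, being a copy of DMSO replicate 2 at 8 h, and replicate 3 had no column of its own. Which of these replicates the column belongs to is not settled. Entries with at least 1 CPM in 3 libraries (12721, 62.61%) were fitted with limma 3.58.1 (R 4.3.3), with 1 mean per group, a mean-dependent prior and 7 residual degrees of freedom. Of the identifiers 91.41% matched GENCODE 29. The fit was also run on simulated data with independent normal noise, so links between libraries were not part of that check.

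The 9 genes and all gene lists were chosen with earlier results of these data known. Named genes were the 9, the degraded targets, the 3 largest absolute folds past the threshold in each list and treatment comparison, and the 3 most similar genes with a mean of at least 5 CPM. Some genes that these lists and rules take in are not reported here. Alternatives were quantile normalisation, centred medians, other pseudocounts and filters, other priors, fits within the groups compared, a replicate block, each library left out, another gene length and another ratio offset. Python 3.11.15, pandas 2.3.3, NumPy 2.4.6, SciPy 1.17.1 and Matplotlib 3.10.9 made tables and figures.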

Additional observations from a re-analysis of the deposited data

Results flagged for a closer look

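For 3 of the 7 tested genes the effect of AU-15330 at 24 h differed from its effect at 8 h by limma's test of the difference itself. Of all tested entries, 18.5% differed. The difference in log2 fold, 24 h minus 8 h, was -1.67 ± 0.29 (SE) for ITGB7, -0.88 ± 0.114 for ICAM3 and 1.78 ± 0.113 for SELPLG (limma adjusted p = 0.00305, 0.00046 and 4.81e-06). SELPLG is the gene that passed the threshold in opposite directions at the 2 times. Each time is a batch of its own in the labels, and the AU-15330 and DMSO libraries compared at a time share that batch.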

How the results depend on the processing

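No call among the 9 genes, the degraded targets and the other named genes of the adhesion lists, the ICAM cluster and the mantle cell lymphoma markers changed sign; the genes named for likeness were not run. Among values that did not pass, leaving out 1 library at a time gave -0.17 to 0.06 for ITGB1 at 8 h, -0.02 to 0.21 for ITGB1 over time in DMSO, -0.14 to 0.24 for ITGB7 at 8 h and -0.19 to 0.44 for the log2 ratio of ITGB7 to ITGB1 at 8 h (difference, AU-15330 minus DMSO). ICAM5 at 24 h was -0.04 to 0.14 in such fits. ITGB7 at 8 h was -0.03 with a replicate block, and CCND1 at 24 h was 0.11 after quantile normalisation. The counts of entries past the threshold stayed within 1.5 times of the values reported in all settings that changed scaling, scale, filter, prior or samples in the fit. Leaving out 1 library moved the count for the difference between the times, 2358, over a range of 1571 to 2414, lowest without DMSO replicate 2 at 8 h. It moved the count for time in DMSO, 1287, over 661 to 1355, with 688 and 661 without DMSO replicate 1 or 2 at 8 h and 851 without DMSO replicate 1 at 24 h. The number of the 9 genes past the threshold ranged over 4 to 5 at 8 h, 6 to 8 at 24 h (8 with no filter, which adds ITGAL and ITGB2) and 3 to 4 for the difference. The ITGA4 difference passed under quantile normalisation (0.35, limma adjusted p = 0.0463), and the ITGB1 difference passed without DMSO replicate 1 at 8 h (0.26, limma adjusted p = 0.0439), as did ITGB7 over time in DMSO without AU-15330 replicate 3 at 8 h (0.52, limma adjusted p = 0.0487). The cause was not tested. SMARCA4 at 8 h and PBRM1 at 24 h did not pass after quantile normalisation (limma adjusted p = 0.0721 and 0.0648) or without some libraries. Another scaling moved the median log2 fold of all entries to at most 0.05.

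Deviations from group means correlated at -0.043 to 0.134 between same-numbered libraries. Libraries of different numbers were not compared, so whether the numbers pair samples is not settled. A replicate block changed no call among the 9 genes and ended those of CD47 and FDX2 at 8 h (limma adjusted p = 0.0676 and 0.0649). Levels per kb rest on the gene length: with the median length of protein-coding transcripts, which counts fragments, all 36 values moved and neighbours changed places, SELPLG with ITGB7, ICAM1 and ICAM3, ICAM1 with ITGA4, ICAM2 and ICAM3, ITGA4 with ICAM2, and ITGAL with ITGB2. Low counts of ITGAL and ITGB2 and 2 libraries of DMSO at 8 h limit the precision.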
